A study of Mus musculus with 18 samples.

Results

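The opioid peptide genes and opioid receptor genes of the mouse were read out in RNA-seq libraries of the striatum from mice of 4 genotypes. The members were the rows of the deposited count table whose gene identifiers belong to Penk, Pdyn and Pnoc, which encode peptide precursors, and to Oprm1, Oprk1, Oprd1 and Oprl1, which encode receptors. All 7 genes were found among the 55421 genes of the table, and all 7 were among the 20914 genes that passed the filter on low counts. The study asked how loss of a CK2a' allele bears on the transcriptional changes of a Huntington's disease model.

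The WT group held 5 mice. The zQ175 group held 5 mice that were heterozygous for a knock-in of an expanded CAG repeat in the endogenous huntingtin gene, so that the mutant protein is made wherever huntingtin is expressed. The CK2a'(+/-) group held 3 mice that lacked 1 of the alleles of Csnk2a2, the gene of the CK2 alpha prime catalytic subunit, in every cell. The zQ175:CK2a'(+/-) group held 5 mice that carried both changes. All mice were untreated, 12 to 14 months old and labelled C57BL/6, and the study's methods state that the CK2a' line, of mixed strain origin, had been bred to this background over many generations. The methods give the same ratio of females to males, mostly females, for WT and zQ175:CK2a'(+/-) mice and a smaller share of females for zQ175 and CK2a'(+/-) mice, and the labels do not give the sex of single libraries. Csnk2a2 lay between 29.4 and 37.5 CPM, the count scaled to the size of its library in the 10 mice with 2 alleles and between 14.7 and 19.9 CPM in the 8 mice with 1 allele.

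Opioid peptides are cut from larger precursor proteins at pairs of basic residues and act on receptors that couple to inhibitory G proteins. In the striatum, enkephalin from Penk is a classical marker of the indirect pathway projection neurons, which carry the dopamine D2 receptor, and dynorphin from Pdyn marks the direct pathway neurons, which carry the D1 receptor. Enkephalins act mainly on the delta and mu receptors (Oprd1, Oprm1), dynorphins on the kappa receptor (Oprk1), and nociceptin from Pnoc on its own receptor (Oprl1). The mu receptor is concentrated in the striosomes, patches that lie within the surrounding matrix of the striatum.

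The coding sequences of the 3 precursor genes hold the codons of the peptides, which are printed here. The counts of Penk and Pdyn are read below as RNA levels of these genes, and the libraries do not measure protein or peptide. Penk (ENSMUSG00000045573) lies on the minus strand at chr4:4133531-4138819 of GRCm38, Pdyn (ENSMUSG00000027400) on the minus strand at chr2:129686565-129699844 and Pnoc (ENSMUSG00000045731) on the minus strand at chr14:65400673-65425472. Every window below is exonic coding sequence, in exon 2 of Penk-201, exon 4 of Pdyn-201 or exon 3 of Pnoc-201 of GENCODE M21. Each is written 5′ to 3′ in the sense of the transcript, with the 5 peptide codons in capitals and 2 flanking codons on each side in lower case. Coordinates give the capital letters.
Penk, Met-enkephalin, chr4:4134334-4134348: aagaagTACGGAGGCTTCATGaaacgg
Penk, Met-enkephalin, chr4:4134313-4134327: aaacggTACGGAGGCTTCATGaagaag
Penk, Met-enkephalin, chr4:4134226-4134240: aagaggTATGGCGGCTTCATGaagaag
Penk, Met-enkephalin, chr4:4134073-4134087: aagaggTATGGGGGCTTCATGagaagc
Penk, Met-enkephalin, chr4:4134001-4134015: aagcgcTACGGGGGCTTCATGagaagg
Penk, Leu-enkephalin, chr4:4133941-4133955: aagaggTATGGGGGCTTCCTGaagcgc
Penk, Met-enkephalin, chr4:4133848-4133862: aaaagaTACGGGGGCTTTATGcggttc
Pdyn, Leu-enkephalin, chr2:129688238-129688252: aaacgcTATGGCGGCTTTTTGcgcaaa
Pdyn, Leu-enkephalin, chr2:129688130-129688144: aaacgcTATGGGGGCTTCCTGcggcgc
Pdyn, Leu-enkephalin, chr2:129688073-129688087: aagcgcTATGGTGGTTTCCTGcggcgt
Pnoc, first 5 codons of nociceptin, chr14:65404878-65404892: aaaaggTTTGGGGGCTTCACCggggcc

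The Penk coding sequence of 268 codons held 6 copies of the Met-enkephalin codons and 1 copy of the Leu-enkephalin codons. The Pdyn coding sequence of 248 codons held 3 copies of the Leu-enkephalin codons, which begin the dynorphin family peptides, and the Pnoc coding sequence of 187 codons held 1 copy of the nociceptin codons. All 10 enkephalin windows followed a pair of codons for basic residues, and 8 of the 10 were followed by another such pair. Those not followed by a pair were the Penk Met-enkephalin copies at codons 187 to 191 and 262 to 266. Which peptides are cut from these was not tested. Codons able to spell Met-enkephalin, read in frame, occurred in 2 of 21614 protein-coding genes (0.00925%), Penk and Pomc. Those for Leu-enkephalin occurred in 9 genes (0.0416%) and those for the start of nociceptin in 3 genes (0.0139%).

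**Figure D1:**
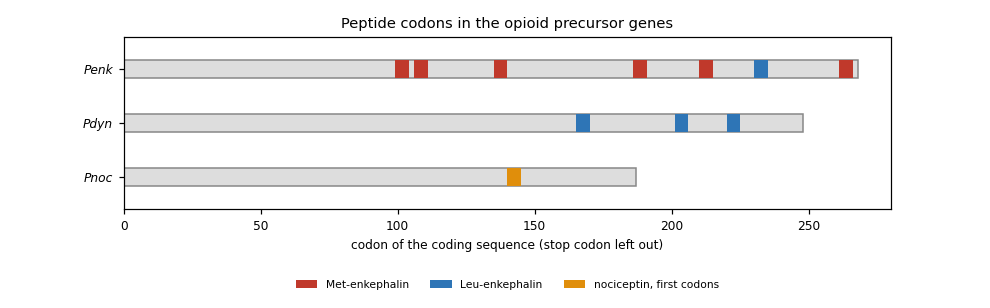
Position of the peptide codons along the coding sequences of Penk, Pdyn and Pnoc, with codons counted from the start codon on the horizontal axis. Grey bars span 268, 248 and 187 codons, and coloured blocks mark 6 Met-enkephalin and 1 Leu-enkephalin copies in Penk, 3 Leu-enkephalin copies in Pdyn and the start of nociceptin in Pnoc.

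The receptor genes lie on the plus strand at chr10:6758506-7038198 (Oprm1, ENSMUSG00000000766), chr1:5588466-5606131 (Oprk1, ENSMUSG00000025905) and chr2:181715016-181720985 (Oprl1, ENSMUSG00000027584), and on the minus strand at chr4:132110726-132144486 (Oprd1, ENSMUSG00000050511). Of the 1634 exon bases of Penk, 233 (14.3%) overlap exons of an antisense gene, A830012C17Rik. That gene had 15 to 50 counts per library, which was 0.101% to 0.613% of the Penk CPM. Oprm1 shares 96 exon bases (1.19%) with the antisense gene Ipcef1, and no exon overlap was found for the other 5 members. The kit keeps the strand, but the strand setting of the counting is not given in the sources used here.

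Counts assigned to genes ranged from 13612381 to 22702547 per library over the 18 libraries. Neuronal genes were present in every library (4 general markers summed to 2060 to 2590 CPM). Some libraries stood apart in their markers. The summed level of 5 projection neuron markers, which include Ppp1r1b and Rgs9, was 964 CPM in zQ175 replicate 1 and 1710 to 3630 CPM in the other 17 libraries. That library also held 581 CPM of 4 thalamic markers, against 14.6 to 134 CPM elsewhere. The 6 cortical excitatory markers were higher in the zQ175 group as a whole, at 79.7, 59.4, 93, 82.7 and 320 CPM against 23.1 to 55.4 CPM in WT mice, without overlap. Of the 5 tested, all 5 had a positive sign and an unadjusted p under 0.05, and 1 passed, Tbr1 (log2 fold change 1.27, adjusted p = 0.0902, edgeR). The 4 oligodendrocyte markers summed to 2620 to 3950 CPM in zQ175 mice and 4020 to 5650 CPM in WT mice, without overlap, and 2 of the 4 passed, both lower, among them Mbp (log2 fold change −0.58, adjusted p = 0.0469, edgeR). Choroid plexus markers summed to at least 948 CPM in 4 libraries, none of the zQ175 group, and to at most 15.4 CPM in the zQ175 group.

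Penk was by far the most abundant member in every library. Levels between genes were compared per length, as FPKM (CPM per kilobase of exon). In WT mice Penk stood at 479 ± 186 FPKM (SD, n = 5), 29 times the mean of Pdyn at 16.5 ± 4.89 FPKM. Below these came Oprl1 at 4.61 ± 1.35, Oprd1 at 3.82 ± 1.3, Oprk1 at 1.8 ± 0.556, Pnoc at 1.49 ± 0.816 and Oprm1 at 1.24 ± 0.421 FPKM. The WT mice did not overlap between Penk and Pdyn or between Pdyn and Oprl1, whereas every later neighbour in that order overlapped. Penk made up 94.5% to 97.7% of the summed precursor FPKM in the 18 mice.

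Penk and Pdyn held the first 2 places in all 4 groups, and the order below them varied. In the CK2a'(+/-) group Oprd1 (5.37 ± 1.43 FPKM, n = 3) stood above Oprl1 (3.88 ± 0.585 FPKM), but the mice overlapped. Oprm1 was the lowest member in WT and in CK2a'(+/-) mice, where it stood at 0.894 ± 0.0215 FPKM. In both groups with the zQ175 allele Pnoc was the lowest, at 1.03 ± 0.834 FPKM in zQ175 mice and 0.718 ± 0.388 FPKM in zQ175:CK2a'(+/-) mice. Only in the latter group did the 5 mice of Oprm1 (1.82 ± 0.292 FPKM) and of Pnoc not overlap.

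**Figure D2:**
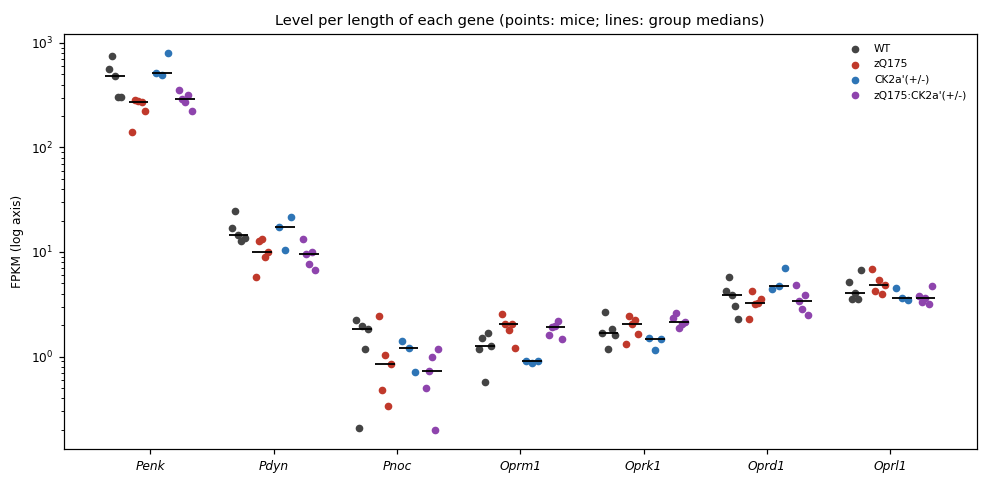
Level per length of the 7 genes in each mouse, in FPKM on a log axis, with 1 point per mouse, colours for the 4 genotypes and lines at the group medians. Penk lies well above every other member in all 4 groups, with a WT mean of 479 FPKM against 16.5 for Pdyn, and the 4 receptors and Pnoc lie at or below 7.02 FPKM.

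Penk, the enkephalin precursor gene, was lower in zQ175 than in WT mice and was the 1 member that passed edgeR's test in any comparison. By DESeq2, Oprm1 passed as well, in zQ175 against WT. The WT mice stood at 917, 1210, 795, 496 and 491 CPM, in the order of their replicate numbers. The zQ175 mice stood at 229, 464, 456, 441 and 364 CPM. The groups did not overlap, but the lowest WT mice (replicates 4 and 5) lay close above the highest zQ175 mice. The log2 fold change was −1.0 (SE 0.227, 95% interval −1.47 to −0.53), with an adjusted p of 0.061 by edgeR's quasi-likelihood test and 0.0139 by DESeq2, against a threshold of 0.1 on the false discovery rate. Across all genes tested in zQ175 against WT, 1.1% passed this threshold in either direction with edgeR, 5.26% with DESeq2, and 2.44% had groups that did not overlap. In bulk tissue, fewer cells that express a gene and less RNA per cell cannot be told apart.

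The Penk call depended on single libraries and on how the spread was estimated. Of the 10 fits that each left out 1 mouse of these groups, 6 kept the call, with adjusted p values down to 0.0346 (−1.13, without WT replicate 4), and it was also kept with no filter on low counts (−1.01, adjusted p = 0.000493) and with the thalamic markers as covariate (−0.85, adjusted p = 0.0223), all by edgeR. Without zQ175 replicate 1 the log2 fold change was −0.86 with an adjusted p of 0.11 (edgeR), and without zQ175 replicate 5 it was −0.98 with 0.122. Leaving out WT replicate 1 or WT replicate 3 gave −0.96 and −0.99 with adjusted p values of 0.147 and 0.164, and a fit of only these 2 groups gave −1.0 with 0.166. The fits without WT replicate 3, without zQ175 replicate 5 and of only the 2 groups passed 0 genes of all those tested. With the level of the cortical markers as covariate, where also 0 genes of all passed, the log2 fold change was −1.1 (adjusted p = 0.347), and a robust fit gave −1.0 with 0.114. The robust fit passed 313 of all genes, against 230 in the main fit. With zQ175 replicates 1 and 5 both left out, the log2 fold change was −0.79 (SE 0.234) and the adjusted p 0.267. The direction was the same in all of these fits.

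Penk did not pass the test in zQ175:CK2a'(+/-) mice, although its values were also low. These 5 mice stood at 582, 474, 441, 520 and 360 CPM, and 2 of them lay above the lowest WT mouse. Against WT the log2 fold change was −0.72 (SE 0.226, 95% interval −1.19 to −0.25; adjusted p = 0.348, edgeR). The difference between zQ175 and zQ175:CK2a'(+/-) was −0.28 on the log2 scale, with a 95% interval of −0.75 to 0.18 and an adjusted p of 0.892 (edgeR). With 1 mouse left out at a time it ranged from −0.37 to −0.14. With the level of the thalamic markers as covariate, or with no filter on low counts, the difference of zQ175:CK2a'(+/-) from WT passed (log2 fold changes −0.84 and −0.72, adjusted p = 0.0321 and 0.0576, edgeR). Those fits passed 173 and 85 of all genes in this comparison, against 3 in the main fit. Taking both genotypes with the zQ175 allele, the 10 mice ranged from 229 to 582 CPM with a median of 448, and the 8 mice without it from 491 to 1300 CPM with a median of 818.

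CK2a'(+/-) mice had Penk values of 838, 799 and 1300 CPM, and the last lay above the highest WT mouse. Their log2 fold change from WT was 0.32 (95% interval −0.21 to 0.86, adjusted p = 0.999, edgeR), and 0.07 to 0.54 with 1 mouse left out at a time. The interaction of the zQ175 and CK2a' genotypes on Penk was −0.04 (95% interval −0.75 to 0.67).

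Pdyn, the dynorphin precursor gene, also had lower means in both groups with the zQ175 allele, without passing the test. WT mice stood at 48.8, 71.5, 41.5, 36.9 and 39.2 CPM, and zQ175 mice at 16.5, 37, 38.3, 25.6 and 29 CPM. The zQ175:CK2a'(+/-) mice stood at 38.6, 27.9, 22.2, 29 and 19.5 CPM. The zQ175 mice at 37 and 38.3 CPM and the zQ175:CK2a'(+/-) mouse at 38.6 CPM reached into the lower part of the WT range. The log2 fold change from WT was −0.70 (95% interval −1.19 to −0.22, adjusted p = 0.172) in zQ175 mice and −0.79 (95% interval −1.28 to −0.31, adjusted p = 0.329) in zQ175:CK2a'(+/-) mice, both by edgeR. Both comparisons share the WT mice. With no filter on low counts both passed (adjusted p = 0.0332 and 0.047), and with the thalamic markers as covariate the second did (−0.94, adjusted p = 0.0208), again by edgeR. Over all genes, no filter passed 451 and 85 in these comparisons, and the thalamic covariate passed 173 in the second. The main fit passed 230 and 3.

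For loss of a CK2a' allele alone, no difference in Pdyn was detected with these mice. CK2a'(+/-) mice stood at 50.1, 30.1 and 62.7 CPM, which spans most of the WT range. Their log2 fold change from WT was 0.00 with a 95% interval of −0.55 to 0.56. Between zQ175 and zQ175:CK2a'(+/-) mice it was 0.09 (95% interval −0.40 to 0.58, adjusted p = 0.979, edgeR).

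The ratio of Penk to Pdyn, in FPKM, had a median of 30 in WT mice (22.2 to 33.9), 22.2 in zQ175 mice (21.1 to 30.5), 36.6 in CK2a'(+/-) mice (29.5 to 46.9) and 31.7 in zQ175:CK2a'(+/-) mice (26.7 to 35.1). The ranges of all 4 genotypes overlapped.

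Pnoc, the nociceptin precursor gene, was measured with only 8 to 112 counts per library. WT mice stood at 4.88, 0.447, 4.22, 2.58 and 3.94 CPM and zQ175 mice at 5.25, 1.04, 2.21, 0.725 and 1.83 CPM. CK2a'(+/-) mice stood at 3.03, 2.58 and 1.53 CPM and zQ175:CK2a'(+/-) mice at 1.07, 1.58, 2.14, 0.425 and 2.52 CPM. The spread within a group was wide, with a coefficient of variation of 81.3% in zQ175 mice, and every pair of groups overlapped. Compared with WT, the log2 fold change was −0.52 (95% interval −1.63 to 0.58) in zQ175 mice and −1.06 (95% interval −2.19 to 0.08, adjusted p = 0.576, edgeR) in zQ175:CK2a'(+/-) mice. The highest zQ175 value came from replicate 1, the library with the thalamic markers, and without that library the log2 fold change of zQ175 against WT was −1.14. Over the fits that each left out another mouse of these 2 groups it lay between −0.81 (without WT replicate 2) and −0.31 (without zQ175 replicate 4), with −0.34 without WT replicate 1 and −0.35 without zQ175 replicate 2. With the Xist level as covariate, a stand-in for the share of females, it was −0.91 (adjusted p = 0.441, edgeR). A fit with the thalamic markers as covariate gave −1.06 (adjusted p = 0.138, edgeR), one with the projection neuron markers −1.78 (adjusted p = 0.1 after rounding, just under the threshold), and one with the cortical markers 0.18 (adjusted p = 0.957).

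**Figure D3:**
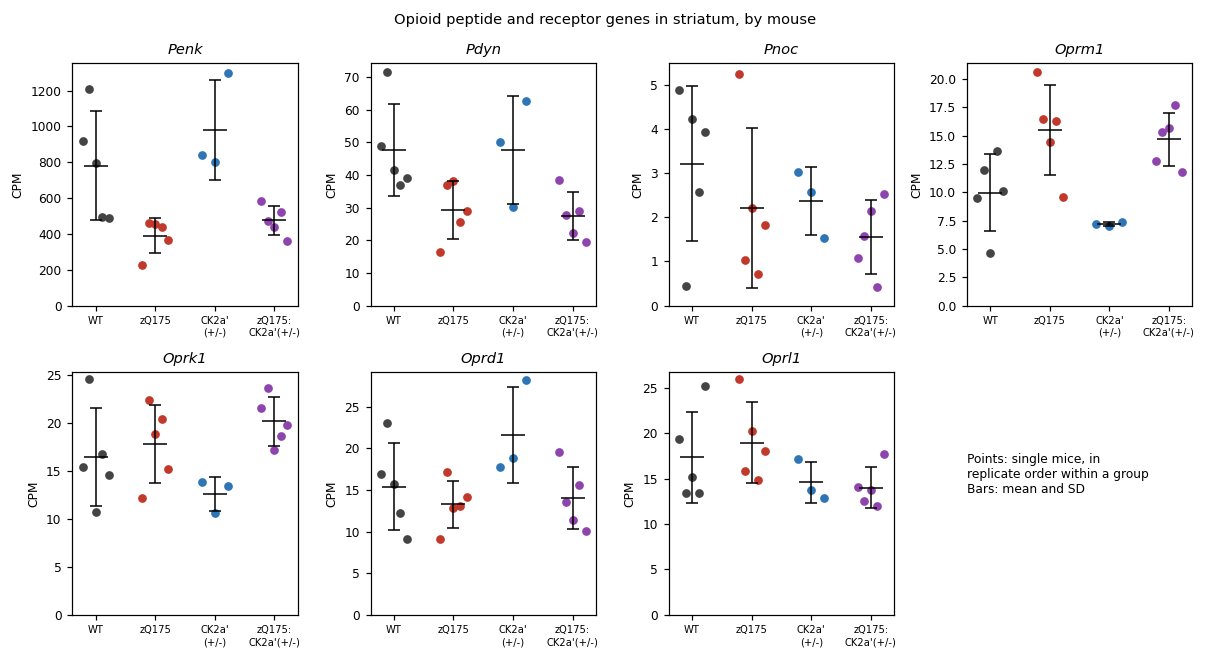
CPM of each of the 7 genes on linear axes from 0, with 1 point per mouse in replicate order within each genotype, and bars for the mean and SD. The 5 zQ175 mice (229 to 464 CPM) lie below all 5 WT mice (491 to 1210 CPM) for Penk, whereas for every other member the mice of these 2 groups overlap.

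Oprm1, the mu receptor gene, had higher values in most mice with the zQ175 allele, without passing the test by edgeR. The WT mice stood at 9.47, 12, 4.63, 13.6 and 10.1 CPM, and the zQ175 mice at 20.6, 16.5, 14.4, 16.3 and 9.62 CPM. All zQ175 mice but replicate 5 lay above the highest WT mouse. This gave a log2 fold change of 0.63 (SE 0.216, 95% interval 0.18 to 1.08) with an adjusted p of 0.188 by edgeR, which misses the threshold, and an adjusted p of 0.0871 by DESeq2, which passes it. The highest value came from replicate 1. Without that library the log2 fold change was 0.50 (adjusted p = 0.339, edgeR), and with the level of the thalamic markers as covariate it was 0.65 (adjusted p = 0.159, edgeR). Over the fits that each left out 1 mouse of these groups it lay between 0.46 (without WT replicate 3) and 0.77 (without WT replicate 4). It was 0.76 without zQ175 replicate 5, and none of these fits passed it.

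In the zQ175:CK2a'(+/-) mice, which hold no library rich in thalamic markers, Oprm1 stood at 12.8, 15.3, 15.7, 17.7 and 11.8 CPM. The upper 3 of these mice lay above all WT mice. The log2 fold change from WT was 0.55 (95% interval 0.1 to 1.0, adjusted p = 0.443, edgeR), and between zQ175 and zQ175:CK2a'(+/-) it was 0.08 (95% interval −0.37 to 0.53). CK2a'(+/-) mice stood at 7.22, 7 and 7.34 CPM, inside the lower part of the WT range, with a log2 fold change of −0.48 (95% interval −1.01 to 0.06, adjusted p = 0.999, edgeR). The interaction was 0.40 (95% interval −0.30 to 1.09).

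Of 5 listed striosome markers (Oprm1, Kremen1, Rasgrp1, Tshz1, Bach2), 0 passed in zQ175 against WT by edgeR. The 1 with an unadjusted p under 0.05, which was also the 1 that passed by DESeq2, was Oprm1 itself. Their summed level ranged from 414 to 616 CPM in WT mice and from 479 to 542 CPM in zQ175 mice. The median log2 fold change of the list was 0.14.

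Oprk1, the kappa receptor gene, passed in no comparison. WT mice stood at 15.4, 24.6, 10.7, 16.8 and 14.6 CPM, zQ175 mice at 12.2, 22.4, 18.8, 20.4 and 15.2 CPM, and CK2a'(+/-) mice at 13.8, 10.6 and 13.4 CPM. The zQ175:CK2a'(+/-) mice stood at 21.6, 23.7, 17.2, 18.6 and 19.8 CPM. Compared with WT, the log2 fold change was 0.11 (95% interval −0.27 to 0.49) in zQ175 mice, 0.29 (−0.09 to 0.68) in zQ175:CK2a'(+/-) mice and −0.38 (−0.83 to 0.07) in CK2a'(+/-) mice. Leaving out 1 mouse at a time gave 0 to 0.29, 0.18 to 0.47 and −0.5 to −0.19 in the same order. With the projection neuron markers as covariate the zQ175 value was 0.40 (adjusted p = 0.287, edgeR). Over the alternative settings the zQ175:CK2a'(+/-) value reached 0.42. The interaction was 0.57 (95% interval −0.02 to 1.16, adjusted p = 0.916, edgeR).

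Oprd1, the delta receptor gene, had its highest mean in CK2a'(+/-) mice, which stood at 17.8, 18.8 and 28.2 CPM. WT mice stood at 16.9, 23, 15.7, 12.2 and 9.13 CPM, zQ175 mice at 9.14, 17.1, 12.8, 13.1 and 14.2 CPM and zQ175:CK2a'(+/-) mice at 19.5, 13.6, 11.4, 15.6 and 10.1 CPM. All 3 groups overlapped with WT. The log2 fold change from WT was 0.49 (95% interval −0.03 to 1.02, adjusted p = 0.999, edgeR) in CK2a'(+/-) mice, −0.21 (−0.68 to 0.26) in zQ175 mice and −0.13 (−0.59 to 0.34) in zQ175:CK2a'(+/-) mice. With the projection neuron markers as covariate the last 2 had the opposite sign, at 0.32 and 0.09. Leaving out 1 mouse at a time gave 0.25 to 0.68 in CK2a'(+/-), −0.35 to −0.03 in zQ175 and −0.28 to 0.05 in zQ175:CK2a'(+/-) mice.

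Oprl1, the nociceptin receptor gene, was the 1 member with an unadjusted p under 0.05 between zQ175 and zQ175:CK2a'(+/-) mice. The zQ175 mice stood at 26, 15.8, 20.2, 14.8 and 18 CPM and the zQ175:CK2a'(+/-) mice at 14.1, 12.5, 13.7, 12 and 17.7 CPM. The highest zQ175:CK2a'(+/-) mouse lay above the lower 2 zQ175 mice. The log2 fold change of zQ175 against zQ175:CK2a'(+/-) was 0.43 (95% interval 0.06 to 0.81), with an adjusted p of 0.715 (edgeR), and without zQ175 replicate 1 it was 0.29 (adjusted p = 0.913). Over the alternative settings it ranged from 0.22 to 0.62, and with the Xist level as covariate it was 0.33 (unadjusted p = 0.0654, edgeR). WT mice stood at 19.4, 13.4, 15.2, 13.4 and 25.2 CPM and CK2a'(+/-) mice at 17.1, 13.7 and 12.9 CPM. As for Pnoc and Oprm1, the highest zQ175 value came from replicate 1, and the log2 fold change against WT went from 0.13 (95% interval −0.25 to 0.50) to −0.01 without that library and to −0.18 with the projection neuron markers as covariate.

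Counted over the 7 members, 1 passed in zQ175 against WT (Penk, lower), and 0 passed in each of the other 4 comparisons by edgeR. The shares of all genes that passed were 0.0143% in zQ175:CK2a'(+/-) against WT, 0.0143% in zQ175 against zQ175:CK2a'(+/-), 0.0143% in CK2a'(+/-) against WT and 0.00478% for the interaction. DESeq2 passed 2 members in zQ175 against WT (Penk and Oprm1) and 0 in each of the others, where 0.725%, 0.145%, 0.0293% and 0.103% of the genes with an adjusted p passed.

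At an unadjusted p under 0.05 (edgeR) there were 3 members (Penk, Pdyn and Oprm1) in zQ175 against WT, where 13.9% of all genes reached that level, and the same 3 in zQ175:CK2a'(+/-) against WT, where 9.13% did. There was 1 (Oprl1) in zQ175 against zQ175:CK2a'(+/-), with 6.27% of all genes, 0 in CK2a'(+/-) against WT, with 4.48%, and 0 for the interaction, with 5.39%. In zQ175:CK2a'(+/-) against WT, zQ175 against zQ175:CK2a'(+/-) and CK2a'(+/-) against WT, 0 members had groups that did not overlap, while 1.84%, 1.14% and 3.2% of all genes did. Other pairs of groups were not compared by a test. The median log2 fold change of the members in zQ175 against WT was −0.21, beside 0.00424 over all genes tested.

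**Figure D4:**
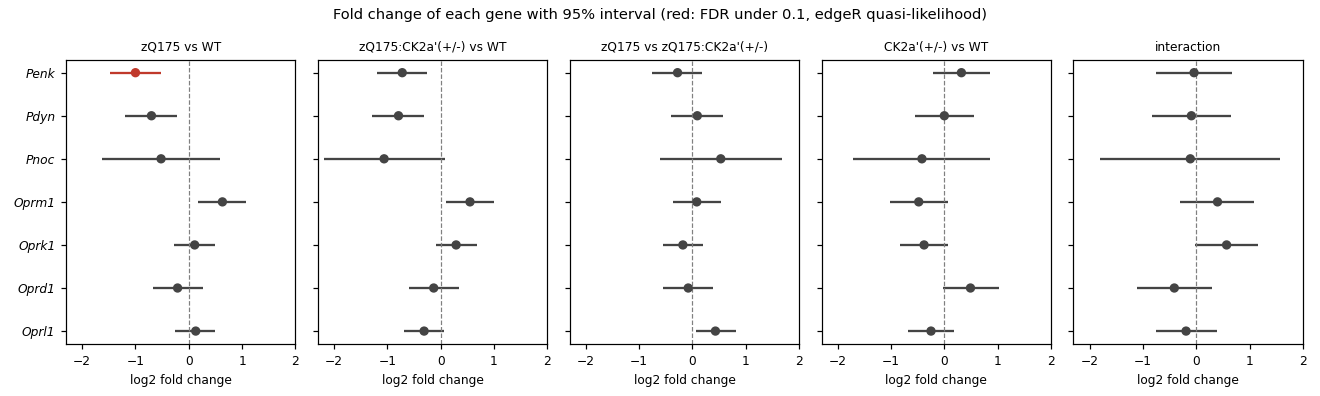
Log2 fold change of each gene (points) with its 95% interval (lines) in 4 comparisons and in the interaction, from the edgeR fit of 18 libraries. Penk in zQ175 against WT, at −1.0 (−1.47 to −0.53), is drawn in red as the 1 value with an adjusted p under 0.1, and the intervals of Pnoc are the widest.

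Markers of the neurons that express Penk and Pdyn were read out beside them. Of the 4 matched markers of indirect pathway neurons tested (Drd2, Adora2a, Gpr6, Sp9), 1 passed in zQ175 against WT, Adora2a, an adenosine receptor gene, with a log2 fold change of −1.12 (SE 0.246, adjusted p = 0.0557, edgeR), and all 4 had a negative sign. Of the 5 markers of direct pathway neurons 0 passed by edgeR, 2 had an unadjusted p under 0.05, 1 passed by DESeq2, and all 5 had a negative sign. Of the 5 markers of all projection neurons 1 passed, Ppp1r1b, the DARPP-32 gene, at −0.85 (SE 0.207, adjusted p = 0.0765, edgeR).

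The summed level of the indirect pathway list was 162 to 464 CPM in WT, 108 to 185 in zQ175, 299 to 405 in CK2a'(+/-) and 153 to 217 in zQ175:CK2a'(+/-) mice. That of the direct pathway list was 195 to 361, 104 to 232, 254 to 348 and 163 to 223 CPM in the same order. The 104 CPM came from zQ175 replicate 1, and the next zQ175 mouse stood at 192. In zQ175:CK2a'(+/-) against WT 0 genes of either list passed by edgeR, with negative signs in 3 of 4 and 3 of 5. WT replicates 4 and 5, the WT mice with the lowest Penk, also had the lowest level of the indirect pathway list (162 and 171 CPM) and of the projection neuron list (1880 and 1810 CPM). With the mean log2 level of the projection neuron list as covariate, a choice made after the data were seen, the log2 fold change of Penk in zQ175 against WT was −0.40 (SE 0.1, adjusted p = 0.093) and in zQ175:CK2a'(+/-) against WT −0.44 (SE 0.0873, adjusted p = 0.0729), both by edgeR. That of Pdyn was −0.21 (adjusted p = 0.609) and −0.59 (adjusted p = 0.151), and that of Oprm1 was 0.55 (adjusted p = 0.314) and 0.53 (adjusted p = 0.371). In the same fit the direction in zQ175 against WT turned for Oprd1, at 0.32 (adjusted p = 0.377), and for Oprl1, at −0.18 (adjusted p = 0.659). That of Oprd1 in zQ175:CK2a'(+/-) against WT turned too, at 0.09 (adjusted p = 0.872). Over all genes this fit passed 241 in zQ175 and 25 in zQ175:CK2a'(+/-) against WT, where the main fit passed 230 and 3.

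**Figure D5:**
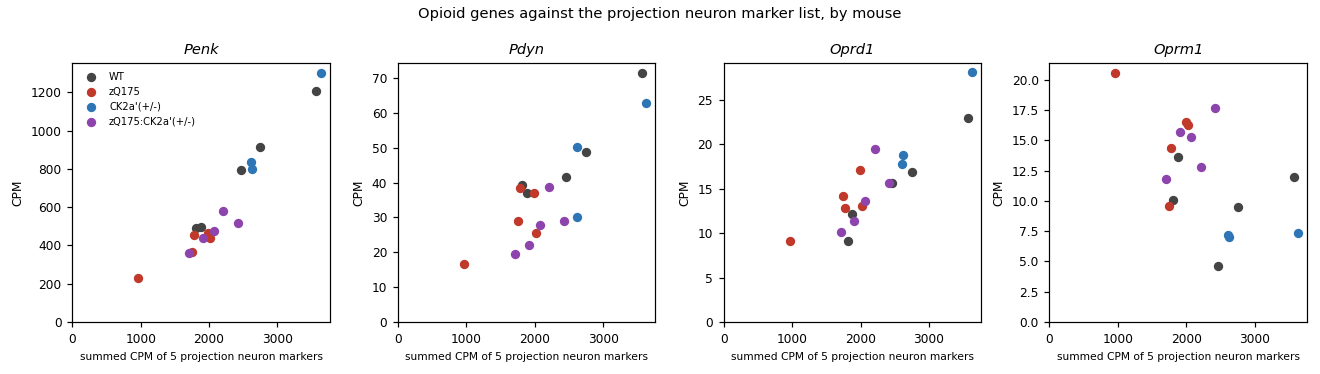
CPM of Penk, Pdyn, Oprd1 and Oprm1 in each of 18 mice against the summed CPM of 5 projection neuron markers in the same library, with colours for the 4 genotypes. Penk, Pdyn and Oprd1 are highest in the 2 mice with the highest marker level (3570 and 3630 CPM), and zQ175 replicate 1, at 964 CPM, has the lowest Penk (229 CPM) and the highest Oprm1 (20.6 CPM).

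Some members varied together from mouse to mouse within genotypes. After removal of the genotype means, log2 CPM of Penk and Oprd1 had a Pearson r of 0.914 (Spearman's rho 0.926) over the 18 mice, Penk and Pdyn one of 0.849 (rho 0.853), and Pdyn and Oprd1 one of 0.815 (rho 0.804). Adjusted permutation p values over the 21 pairs were 0.000315, 0.000315 and 0.00133 for r and 0.000315, 0.000315 and 0.00294 for rho. The unadjusted permutation p values for r were 3e-05, 2e-05 and 0.00019, and those for rho 3e-05, 3e-05 and 0.00047. Without the 2 mice farthest from the median on the first gene, r was 0.881, 0.759 and 0.82. The values share each library's depth and tissue makeup, and the part of the projection neuron level in these relations was not tested.

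In all, 10 of the 21 pairs had an adjusted permutation p for r under 0.05, and without zQ175 replicate 1, the library rich in thalamic markers, 3 did. Those 3 were the pairs among Penk, Pdyn and Oprd1, with r of 0.905 for Penk and Oprd1, 0.796 for Penk and Pdyn and 0.781 for Pdyn and Oprd1 (adjusted permutation p = 0.00136, 0.00136 and 0.0091). The 7 pairs that no longer passed kept their sign with somewhat smaller r, and were Pdyn with Oprk1 (r = 0.684, and 0.582 without it), Pnoc with Oprl1 (0.724 and 0.652), Pnoc with Penk (−0.667 and −0.575), Pnoc with Pdyn (−0.617 and −0.508), Pnoc with Oprk1 (−0.693 and −0.613), Pnoc with Oprd1 (−0.692 and −0.632) and Oprd1 with Oprl1 (−0.656 and −0.585). Their adjusted permutation p values were 0.0189 to 0.0268 with the library and 0.105 to 0.111 without it. By Spearman's rho over the 18 mice, 2 of these 7 had an adjusted permutation p under 0.05, Pnoc with Oprl1 (rho 0.796, 0.00294) and Pdyn with Oprk1 (rho 0.68, 0.0247), and the other 5 had 0.053 to 0.108. Oprm1 was in 0 of the 10 pairs, with r between −0.263 and 0.409 over the 18 mice. Without zQ175 replicate 1 its r was 0.683 with Oprk1 and −0.483 with Pnoc (adjusted permutation p = 0.111 and 0.307).

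The genes whose log2 CPM followed Penk most closely over all 18 libraries were Pde1b, a phosphodiesterase of projection neurons (r = 0.981), Arpp19 (r = 0.976) and Rgs9, a striatal regulator of G protein signalling (r = 0.974). The 95th percentile of r with Penk over all genes was 0.605. For Oprd1 they were Gprin3 (0.929), Kcnk2 (0.917) and Prkcb (0.912), and for Pdyn Prkcz2 (0.91), Kctd1 (0.897) and Gnb5 (0.89). Receptors and Pnoc had other neighbours. Oprm1 was most like B830012L14Rik (0.872), Pcdh10 (0.86) and Nalcn (0.853), and Oprk1 like Gm45159 (0.867), Ripor2 (0.86) and Prkacb (0.857). Pnoc was most like Shd (0.905), Aifm3 (0.902) and Tox2 (0.853), and Oprl1 like Vsnl1 (0.815), Gm26777 (0.812) and Dync1i1 (0.795). These values describe likeness over 18 libraries that share their depth and tissue makeup.

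With genotype means removed, the likeness to Penk was 0.971 for Pde1b, 0.95 for Arpp19 and 0.957 for Rgs9. That to Oprd1 was 0.906 for Gprin3. That to Oprm1 was 0.812 for B830012L14Rik, 0.683 for Pcdh10 and 0.677 for Nalcn.

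Beyond the members, 36 genes of opioid peptide processing, degradation and signalling were read out, all of which were tested. In zQ175 against WT 1 of 36 passed, beside 1.1% of all genes, namely Creb1, the gene of a transcription factor that acts on cAMP response elements such as those of Penk and Pdyn. WT mice ranged from 47.4 to 56.1 CPM and zQ175 mice from 59.2 to 68.1 CPM, without overlap. This was a log2 fold change of 0.30 (SE 0.0695, adjusted p = 0.0613 by edgeR and 0.00717 by DESeq2). In zQ175:CK2a'(+/-) mice Creb1 ranged from 57.3 to 64.9 CPM, again above all WT mice, with a log2 fold change of 0.30 and adjusted p values of 0.204 by edgeR and 0.0281 by DESeq2. The 3 CK2a'(+/-) mice ranged from 48.6 to 53.5 CPM, within the WT range. The edgeR call in zQ175 was lost when WT replicate 1 or 3, or zQ175 replicate 1, 2, 3 or 5, was left out, and those fits passed 0 of the 36 genes.

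The list of transcription regulators of the precursor genes holds Creb1, Kcnip3 and Fosb. Kcnip3, which encodes the repressor DREAM and was named after its values were seen, lay at 64.8 to 82 CPM in WT, 51.4 to 63.9 in zQ175, 75.3 to 98.6 in CK2a'(+/-) and 48.7 to 63.6 in zQ175:CK2a'(+/-) mice. Neither group with the zQ175 allele overlapped with WT, as held for 2 of the 36 genes in each comparison, Creb1 and Kcnip3, and for 2.44% and 1.84% of all genes. The log2 fold changes of −0.29 and −0.30 did not pass (adjusted p = 0.166 and 0.356, edgeR).

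By role, 0 of 6 genes of precursor processing, 0 of 5 of peptide degradation, 0 of 9 receptor-coupled G proteins and effectors, 0 of 10 desensitization and RGS genes and 0 of 3 other opioid genes passed in zQ175 against WT by edgeR. The unadjusted p was under 0.05 for 2, 0, 3, 2 and 1 of them, and for 10 of all 36 genes, where 13.9% of all genes tested reached that level. DESeq2, with 5.26% of all genes, passed 1, 0, 0, 1 and 0, namely Pcsk1, a convertase that cuts precursors at basic residues (log2 fold change 0.63), and Rgs9 (−0.65). In the other 4 comparisons 0 of 36 passed by edgeR, with 3, 6, 5 and 5 genes at an unadjusted p under 0.05, beside 9.13%, 6.27%, 4.48% and 5.39% of all genes, and DESeq2 passed 1, 0, 0 and 0, beside 0.725%, 0.145%, 0.0293% and 0.103%. The median log2 fold change of the 36 genes in zQ175 against WT was 0, with 18 positive and 18 negative signs.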

How the data were processed

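RNA-seq was done on striatum of 18 mice, which the labels number within 4 genotypes (WT n = 5, zQ175 n = 5, CK2a'(+/-) n = 3, zQ175:CK2a'(+/-) n = 5). Per the submitters' processing notes and file header, the authors used FastQC, Trimmomatic, HISAT2 2.1.0 and Subread 1.6.2 on GRCm38, and deposited raw counts per gene with exon lengths. Pair and strand settings of the counting are not given in the sources used here.

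Gene symbols were matched from a gene name table, which left 267 identifiers without a symbol. Counts were TMM normalized and filtered by filterByExpr, and all 18 libraries were fitted together on genotype with edgeR 4.0.16 (quasi-likelihood F-test, Benjamini-Hochberg adjustment over 20914 genes, threshold 0.1). DESeq2 1.42.0 with default settings, as in the study's methods, was an alternative. CPM used TMM library sizes, log2 CPM a prior count of 2, and FPKM the deposited lengths. The interaction is the zQ175 difference with 1 CK2a' allele minus that with 2. Correlations used 100000 permutations within genotypes. Scripts were tested on simulated data.

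The members and lists were chosen with earlier results of these data known. The single values of 2 listed markers are not reported here. Named genes were the 7 members, pathway genes under the threshold (at most 6 per comparison), the 3 genes most like each member, Csnk2a2 and markers beside a result; the DESeq2 calls Pcsk1 and Rgs9, Kcnip3 and the antisense genes were named after their values were seen. P values of the fits set a difference against the spread between these mice, as estimated over the libraries fitted. Those of the correlations come from permuting mice within genotypes. Same-numbered mice did not deviate together (24 pairs, r −0.136 to 0.12, 2 over 0.1), so the numbers were not taken as pairs.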

Additional observations from a re-analysis of the deposited data

How the results depend on the processing

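Over the alternatives, 712 of 791 member log2 fold changes kept their direction and side of the threshold, 8 lost and 8 gained the call, and 63 changed sign. The cause was not tested. In zQ175 against WT, the count of opioid genes passing (1) became 2 with DESeq2, with no filter on low counts and with the projection neuron covariate, and 0 with only the 2 groups, the cortical covariate, the robust fit, a threshold of 0.05, or without zQ175 replicates 1 and 5. Pathway genes (1) became 3 with DESeq2 and with no filter, 2 with the thalamus covariate, and 0 with only the 2 groups, the replicate block, the cortical covariate, a threshold of 0.05, or without both libraries. In zQ175:CK2a'(+/-) against WT, opioid genes (0) became 2 with no filter and with the thalamus covariate and 1 with the projection covariate, and pathway genes (0) became 1 with DESeq2 and the projection covariate and 2 with the thalamus covariate. Over all genes the 3 calls of this comparison became 85 with no filter, 173 with the thalamus covariate, 25 with the projection covariate and 123 with DESeq2. Between the zQ175 genotypes 1 pathway gene passed with no filter, where the calls over all genes went from 3 to 51. The projection and thalamus covariates and the joint omission were chosen after the data were seen. Calls that changed in zQ175 against WT were Oprm1 (0.63, DESeq2), Pdyn (−0.71, no filter), Pnoc (−1.78, projection) and Penk (−1.0 with only the 2 groups and the robust fit, −1.1 cortical, −0.79 without both libraries). In zQ175:CK2a'(+/-) against WT they were Penk (−0.72 no filter, −0.44 projection, −0.84 thalamus) and Pdyn (−0.79 no filter, −0.94 thalamus). Signs that changed were as follows. With only the 2 groups, Pdyn in CK2a'(+/-) against WT was 0. Under the replicate block, which kept the Penk call (−0.96, adjusted p = 0.0993, edgeR), Pdyn in CK2a'(+/-) against WT was −0.1 and the interaction 0.07 for Penk, 0.02 for Pdyn and 0.04 for Pnoc; same-numbered mice did not deviate together. With the Xist level as covariate the interaction was 0.83 for Pnoc and 0.06 for Oprl1. With the cortical covariate zQ175 against WT was 0.18 for Pnoc and −0.07 for Oprk1, zQ175 against zQ175:CK2a'(+/-) −0.13 for Pdyn, and the interaction 0.04 for Penk and 0.08 for Pdyn. With the projection covariate zQ175 against WT was 0.32 for Oprd1 and −0.18 for Oprl1, zQ175:CK2a'(+/-) against WT 0.09 for Oprd1, zQ175 against zQ175:CK2a'(+/-) 0.04 for Penk, −0.3 for Pnoc and 0.23 for Oprd1, CK2a'(+/-) against WT −0.27 for Pdyn and 0.21 for Pnoc, and the Pnoc interaction 0.1. With the thalamus covariate zQ175 against zQ175:CK2a'(+/-) was −0.39 for Pnoc, 0.01 for Oprk1 and 0.21 for Oprd1, CK2a'(+/-) against WT −0.02 for Pdyn, and the interaction 0.66 for Pnoc and 0.02 for Oprl1. Without zQ175 replicates 1 and 5, zQ175 against WT was −0.04 for Oprl1, zQ175 against zQ175:CK2a'(+/-) −0.22 for Pnoc, 0.03 for Oprk1 and 0.03 for Oprd1, and the Pnoc interaction 0.64. Leaving out each mouse in turn gave, in zQ175 against WT, 0 to 1 opioid and 0 to 2 pathway genes passing, and −1.13 to −0.8 for Penk, 0 to 0.29 for Oprk1 and −0.01 to 0.31 for Oprl1. In zQ175:CK2a'(+/-) against WT it gave 0 to 1 pathway genes and −0.28 to 0.05 for Oprd1, and in CK2a'(+/-) against WT −0.25 to 0.25 for Pdyn. The interaction was −0.26 to 0.22 for Penk, −0.34 to 0.15 for Pdyn and −0.36 to 0.51 for Pnoc, and zQ175 against zQ175:CK2a'(+/-) −0.02 to 0.24 for Pdyn, −0.09 to 0.78 for Pnoc, −0.05 to 0.21 for Oprm1 and −0.19 to 0.07 for Oprd1. Of the 21 correlations between members, 10 passed without zQ175 replicate 5 and 3 without zQ175 replicate 1, a choice made after the data were seen. The Oprm1 relations, none of which passed, ranged over these omissions from −0.188 to 0.0248 with Penk, −0.0311 to 0.161 with Pdyn and −0.0839 to 0.0101 with Oprd1. The range was 0.372 to 0.683 with Oprk1, −0.483 to −0.29 with Pnoc and −0.245 to −0.0752 with Oprl1. Over all genes, the 230 calls in zQ175 against WT became 855 with DESeq2, 451 with no filter and 456 with the thalamus covariate. They became 313 with the robust fit, 241 with the projection covariate, 98 under the block and 51 at a threshold of 0.05. With only the 2 groups, the cortical covariate, or without WT replicate 3 or zQ175 replicate 5 they became 0. The range over single mice left out was 0 to 587. Pnoc, at 8 to 112 counts, was the member with the fewest counts, and how far depth limits it was not tested.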
